A study of Mus musculus with 5 samples.

Results

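The 40 genes described here are immediate-early and stress response genes, taken by symbol from the 31053 genes measured in single cells of mouse breast tumors; all 40 symbols were present in the deposited matrices. They were chosen as a named program and not by their values, although earlier results of these data were known when the list was drawn up. The tumors arose in MMTV-PyMT mice on the FVB/N background, in which the mouse mammary tumor virus promoter drives the polyomavirus middle T oncogene in mammary epithelium. From 7 weeks of age, mice received the anti-VEGF-A antibody B20-4.1.1 or a control IgG2a of mouse origin (C1.18.4, the isotype group), each at 5 mg/kg intraperitoneally 2 times per week for 6 weeks, so all tumors carried the oncogene and all mice were injected. There were 6 isotype tumors and 9 B20-4.1.1 tumors, 1 per mouse, and cells of 3 tumors at a time were tagged with multiplexing oligonucleotides and encapsulated together as 1 pool. Each pool held a single treatment (2 isotype pools, tumors 1 to 3 and 4 to 6, and 3 B20-4.1.1 pools, tumors 1 to 3, 4 to 6 and 7 to 9), and the effects of pool and treatment cannot be told apart. The hypoxia classes into which the study divided treated tumors are not in the sample labels and were not used here.

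Immediate-early genes are transcribed within minutes of a growth factor, cytokine, mechanical or stress signal, without new protein synthesis, and most of their mRNAs are short-lived. Their products are largely transcription factors (the FOS, JUN, ATF, EGR, NR4A and KLF families), together with inhibitors that shut the same signals down, such as the DUSP phosphatases, the mRNA-decay factor ZFP36 and the NF-kB inhibitor IκBα, the product of Nfkbia. Warming and enzymatic digestion of tissue also induce these genes, in cultured and in freshly sorted cells, and these tumors were digested with an enzymatic tumor dissociation kit and sorted before and after oligonucleotide tagging. A level measured here is therefore the level in sorted cells after dissociation, and the contribution of the digestion was not tested.

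RefSeq promoter entries (build GRCm38.p6) were matched for 31 of the 40 members; Cebpd, Ctgf, Egr1, Egr3, Fosl1, Ier2, Klf10, Myc and Nfkbiz were not matched. The 250 bases upstream of the annotated start are printed below, 5′ to 3′ on the gene's own strand, for 6 members to which the results return, with a searched motif in capitals. The capitals are the TATA box TATAAA in Fos and Gadd45b, the EGR motif GCGGGGGCG in Fosb and, as its reverse complement, in Nr4a1, and the heat shock element core GAANNTTC in the HSP70 pair Hspa1a and Hspa1b. The windows are chr12:85473640-85473889 (plus strand) for Fos, chr7:19310046-19310295 (minus) for Fosb, chr15:101266596-101266845 (plus) for Nr4a1, chr10:80929841-80930090 (plus) for Gadd45b, chr17:34972157-34972406 (minus) for Hspa1a and chr17:34959239-34959488 (minus) for Hspa1b.
Fos: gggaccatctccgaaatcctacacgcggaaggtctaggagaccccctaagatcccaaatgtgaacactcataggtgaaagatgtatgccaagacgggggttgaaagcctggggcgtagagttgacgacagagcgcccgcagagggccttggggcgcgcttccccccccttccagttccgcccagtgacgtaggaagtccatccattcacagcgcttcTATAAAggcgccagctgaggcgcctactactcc
Fosb: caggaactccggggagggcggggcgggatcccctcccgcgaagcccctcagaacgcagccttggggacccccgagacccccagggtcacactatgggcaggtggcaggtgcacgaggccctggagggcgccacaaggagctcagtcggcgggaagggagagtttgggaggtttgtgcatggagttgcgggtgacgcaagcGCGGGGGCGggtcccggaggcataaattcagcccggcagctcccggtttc
Nr4a1: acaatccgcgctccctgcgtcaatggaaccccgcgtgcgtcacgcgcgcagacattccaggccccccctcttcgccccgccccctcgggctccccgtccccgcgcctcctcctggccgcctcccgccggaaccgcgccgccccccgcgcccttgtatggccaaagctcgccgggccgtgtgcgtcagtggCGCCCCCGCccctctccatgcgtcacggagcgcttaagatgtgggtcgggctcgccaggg
Gadd45b: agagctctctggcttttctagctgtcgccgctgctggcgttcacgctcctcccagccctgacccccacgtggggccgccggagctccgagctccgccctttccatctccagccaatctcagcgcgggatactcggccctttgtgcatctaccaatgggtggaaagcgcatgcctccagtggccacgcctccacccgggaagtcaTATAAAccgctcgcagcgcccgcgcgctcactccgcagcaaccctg
Hspa1a: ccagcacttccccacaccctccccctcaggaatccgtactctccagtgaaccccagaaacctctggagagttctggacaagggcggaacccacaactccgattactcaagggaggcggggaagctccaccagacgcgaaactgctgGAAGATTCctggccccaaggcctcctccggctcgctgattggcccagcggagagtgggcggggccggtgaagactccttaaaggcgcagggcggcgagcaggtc
Hspa1b: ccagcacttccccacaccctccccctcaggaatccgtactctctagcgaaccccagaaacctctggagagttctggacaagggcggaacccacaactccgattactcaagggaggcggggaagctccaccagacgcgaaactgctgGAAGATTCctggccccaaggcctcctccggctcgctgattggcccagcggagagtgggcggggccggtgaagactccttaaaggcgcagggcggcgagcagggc

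The TATA box began 33 bases upstream of the start in Fos and 46 bases upstream in Gadd45b. The EGR motif began 50 bases upstream in Fosb and 60 bases upstream in Nr4a1, and the heat shock core began 104 bases upstream in both Hspa1a and Hspa1b. Over both strands of the same window, GCGGGGGCG was found in 8 of the 31 members (25.8%; Dusp2, Fosb, Fosl2, Klf2, Klf4, Nr4a1, Socs3 and Zfp36), against 2.57% of 32841 promoters. The cyclic AMP response element TGACGTCA was found in 3 members (9.68%; Btg2, Dusp1 and Ppp1r15a) against 1.55%, and the CArG box, the motif of serum response factor, in 2 (6.45%; Egr2 and Zfp36) against 1.47%. GAANNTTC was found in 4 members (12.9%; Fosl2, Hspa1a, Hspa1b and Jun) against 6.7%, its inverted form TTCNNGAA in 2 (6.45%) against 7.17%, and TATAAA in 5 (16.1%; Btg1, Cyr61, Fos, Gadd45b and Nr4a2) against 12.4%. The AP-1 motif TGACTCA was in none of the 31 windows and in 4.46% of all promoters. GAANNTTC and TTCNNGAA can share bases with each other. A member counted if any of its promoter entries had the motif, whereas the share of all promoters counts single entries, so the units differ. Egr2 had several entries, and the similar Hspa1a and Hspa1b windows were counted separately. These are matches of letters in a short window and describe sequence alone. The Hspa1a and Hspa1b windows differed at 3 of 250 bases (98.8% identical), and the windows start 12918 bases apart. The transcripts of the pair were not compared. Reads may be divided between Hspa1a and Hspa1b in ways the counts do not show, and this was not tested.

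Of 30340 deposited cells, 19533 were kept (at least 2500 UMIs, below the study's upper limit, and at most 20% mitochondrial UMIs), 10630 from isotype and 8903 from B20-4.1.1 tumors. A gate on marker genes assigned 13737 of these to an epithelial-like class, 2626 to a T-like class and 1528 to a macrophage-like class; these 3 classes were compared between treatments, and 813 cells with markers of several classes and 186 with too few were set aside. The classes carried their own markers: per 10000 UMIs, the epithelial list summed to between 61.8 and 119.7 in epithelial-like cells and between 1.01 and 2.92 in macrophage-like cells, and the macrophage list to between 174.9 and 270.4 in macrophage-like cells. No barcode was found in 2 tumors of the same pool, and 94 barcodes were found in 2 or more pools. Of the oligonucleotide UMIs of deposited cells, the tumor's own tags held 84.3% to 92.1% in isotype pool 1 and 95.2% to 97.6% in isotype pool 2. In B20-4.1.1 tumors they held 87.8% to 96.0%. The part of wrongly assigned cells was not tested. Isotype pool 1 stood apart: its deposited cells had median UMI counts of 2192 to 2423, and its epithelial-like cells had median mitochondrial shares of 5.94% to 6.08%, against 3.14% to 3.70% in isotype pool 2 and 2.5% to 3.11% in the B20-4.1.1 tumors. In B20-4.1.1 tumors 3, 4 and 6, 57.6%, 67.3% and 66.0% of kept cells were T-like (the T-rich tumors). Results are given below without that pool or without those 3 tumors wherever either decides a count. The comparisons between classes were not run without those 3 tumors.

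Every class expressed the program, at different strengths. Summed over all cells of a class, the 40 members gave 316 UMIs per 10000 in neutrophil-like cells (105 cells; exact Poisson 95% interval 310.6 to 321.6, counting error only), 180.5 in macrophage-like, 143 in dendritic-like (57 cells), 124.5 in B-like (184 cells) and 119.3 in endothelial-like cells (19 cells). Epithelial-like cells gave 104.1, fibroblast or mural-like cells 84.98 (61 cells), NK-like cells 77.87 (217 cells) and T-like cells 73.36. The interval of endothelial-like cells (113 to 126) covered the B-like level, so those neighbours in the order did not differ beyond counting error, whereas the other neighbours had separate intervals. The classes came from different tumors (91, 30 and 54 of the 184 B-like cells from B20-4.1.1 tumors 3, 4 and 6, and 19, 26 and 22 of the 105 neutrophil-like cells from isotype tumors 1, 2 and 3), so these levels are descriptions, and the tests below stay within a tumor.

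**Figure D1:**
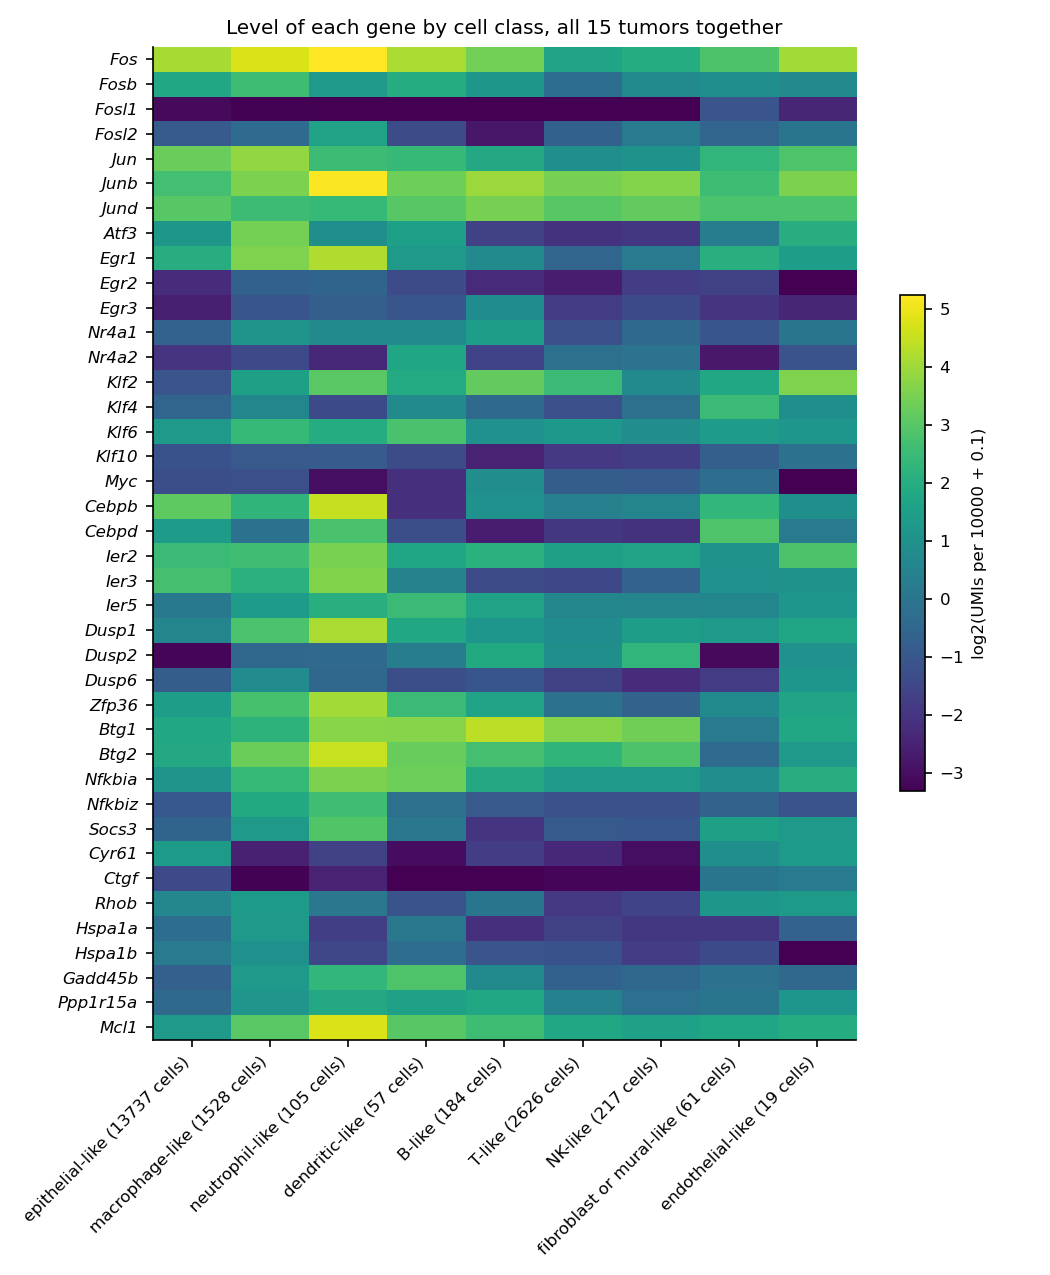
Level of each member (rows, ordered by role) in each marker-gated class (columns, with its number of cells), all 15 tumors together, with color for log2 of UMIs per 10000 plus 0.1. Fos, Egr1, Zfp36 and Mcl1 are brightest in neutrophil-like and macrophage-like cells (summed level of all members 316 and 180.5), whereas Cyr61 and Ctgf are brightest in epithelial-like, endothelial-like and fibroblast or mural-like cells.

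Macrophage-like cells exceeded epithelial-like cells of the same tumor for most of the program. Of 39 members tested, 31 were higher and 6 lower (edgeR quasi-likelihood test with tumor as a block, Benjamini-Hochberg adjusted p under 0.05), where 34.9% of all 11359 genes were higher and 44.0% lower (78.9% in all), and the median log2 difference was 1.21 for the members and -0.13 for all genes. All 5 EGR and nuclear receptor factors were higher, as were all 4 Krüppel-like factors and all 3 dual-specificity phosphatases. So were all 3 regulators of NF-kB and cytokine signalling (Nfkbia, Nfkbiz and Socs3) and all 5 heat shock, growth arrest and survival genes. Nfkbiz, the atypical nuclear IκB that drives secondary NF-kB targets, stood at 3.54 UMIs per 10000 in macrophage-like and 0.416 in epithelial-like cells (log2 difference 2.86 ± 0.15 SE, adjusted p = 8.4e-15 by the same edgeR test). Atf3, a stress-induced repressor of the ATF family, stood at 10.8 against 2.20 (2.16 ± 0.13), and Egr1, a zinc-finger factor induced through serum response factor, at 11.9 against 3.91 (1.36 ± 0.14). Dusp2, a nuclear MAP kinase phosphatase of immune cells, was at 0.632 against 0.0102 (5.81 ± 0.21).

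The members lower in macrophage-like cells were Ctgf, Cyr61, Cebpd, Cebpb, Ier3 and Jund. Ctgf and Cyr61 encode the matricellular proteins CCN2 and CCN1, targets of YAP signalling. Ctgf had 3 UMIs in all macrophage-like cells (0.00272 per 10000, exact interval 0.000561 to 0.00794) against 0.267 in epithelial-like cells, and Cyr61 was at 0.0725 against 2.43 (log2 difference -5.11 ± 0.18). The C/EBP factors were also lower: Cebpd by 1.67 ± 0.10 and Cebpb by 0.79 ± 0.07 on the log2 scale. Jund, the constitutively expressed JUN member, was 1.43-fold lower. Ier2 (log2 difference 0.02 ± 0.11) and Myc (0.05 ± 0.10) did not pass the test.

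T-like cells showed another division of the same program. Of 40 members tested against epithelial-like cells of the same tumor, 12 were higher and 22 lower (edgeR, tumor as a block), against 35.4% and 41.3% of 12193 genes (76.7% in all). The higher members included Dusp2 (1.83 against 0.0102 UMIs per 10000, log2 difference 7.16 ± 0.17), the orphan receptor Nr4a2 (0.7997 against 0.143, 3.05 ± 0.22), Klf2, a factor of naive T-cell quiescence and trafficking (5.55 against 0.376, 2.26 ± 0.32), the antiproliferative Btg1 (12.9 against 3.38, 1.55 ± 0.09) and Egr3, a target of T-cell receptor signalling (0.181 against 0.0677, 1.55 ± 0.25). These levels are over all cells of a class, so tumors with many T-like cells weigh most, whereas the log2 differences are within tumors. By tumor, Klf2 in T-like cells ran from 0.0621 to 12.3, with medians of 1.42 in isotype and 2.39 in B20-4.1.1 tumors. Nr4a2 had medians of 2.06 and 0.621. The comparison was not run without the T-rich tumors. Junb was higher (11.1 against 6.26, 0.59 ± 0.10), whereas its partner Fos was lower (3.11 against 17.4, -2.61 ± 0.14) and Jun was lower (1.83 against 9.70, -2.44 ± 0.10). The lowest relative to epithelial-like cells were Ctgf (-5.55 ± 0.28), Cyr61 (-4.89 ± 0.16), Ier3 (-4.77 ± 0.17), Atf3 (-4.15 ± 0.18) and Cebpd (-3.98 ± 0.17). The epithelial marker list reached between 2.12 and 4.79 UMIs per 10000 in T-like cells, against 61.8 to 119.7 in epithelial-like cells, and the part of free RNA in the few Ctgf, Cyr61 and Ier3 UMIs of T-like cells was not tested. Without isotype pool 1, chosen after the data had been seen, 35 of 39 members were called between macrophage-like and epithelial-like cells, beside 75.8% of genes, and 30 of 40 between T-like and epithelial-like cells, beside 75.0%.

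In epithelial-like cells, B20-4.1.1 tumors differed from isotype tumors in 10 of 40 members, 6 higher and 4 lower. Higher were the matricellular gene Ctgf, the AP-1 genes Fosl1 and Jund, the C/EBP factor Cebpd, the small GTPase gene Rhob and the growth arrest gene Gadd45b. Lower were the nuclear receptors Nr4a2 and Nr4a1, the AP-1 factor Fosb and Nfkbiz. By the same edgeR test, 14.4% of 12312 genes were called (7.51% higher, 6.9% lower). The median log2 fold change was 0.28 over the 40 members and -0.00489 over all genes, 29 members lay above 0 and 11 below, and 21 of 40 members (52.5%) had an unadjusted p under 0.05, beside 31.2% of genes.

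**Figure D2:**
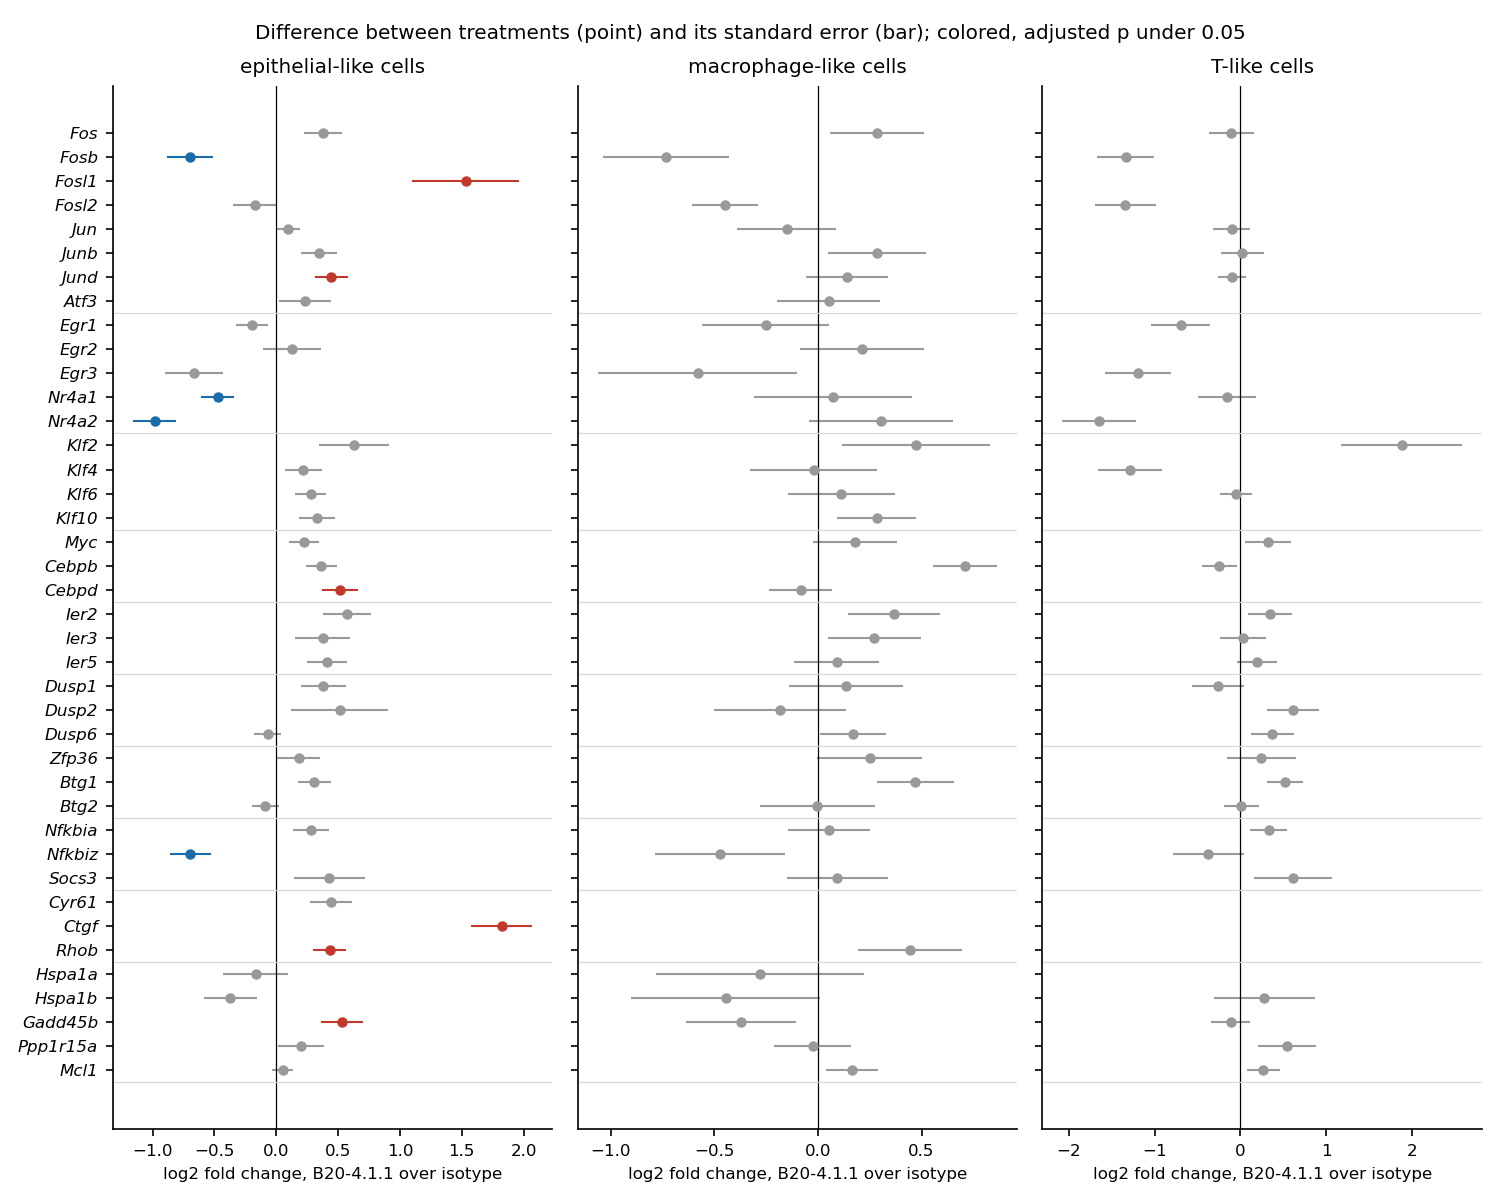
Log2 fold change of each member (rows, by role), B20-4.1.1 over isotype, in 3 classes (panels, each with its own x scale), with the standard error as a bar; colored points have an adjusted p under 0.05 (red higher, blue lower) and untested members have no point. Colored points are in the epithelial-like panel for 10 members, from Nr4a2 at -0.98 to Ctgf at 1.82, and in neither other panel.

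Ctgf (chromosome 10, 24595442 to 24598683, plus strand, GRCm38) showed the widest separation. Its level in epithelial-like cells was 0.108, 0.132 and 0.219 UMIs per 10000 (lowest, median and highest of 6 isotype tumors) and 0.260, 0.533 and 0.761 (9 B20-4.1.1 tumors), so every treated tumor lay above every isotype tumor. The log2 fold change was 1.82 ± 0.25 (3.54-fold, adjusted p = 0.000607 by edgeR). It was the only member whose treatments did not overlap, which held for 2.87% of all genes tested (1.55% with B20-4.1.1 higher). The difference was present in each B20-4.1.1 pool, with pool means of 0.461, 0.617 and 0.395 against isotype pool means of 0.126 and 0.158. Without isotype pool 1 Ctgf still passed, and over 16 alternative settings it passed in 14, with log2 fold changes of 1.58 to 2.11. The 2 settings in which it did not pass treated the pool as the unit of variation: adjusted p = 0.0916 in limma-voom with a random effect of pool and 0.12 for edgeR on sums per pool.

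Nr4a2 (chromosome 2, 57106830 to 57124003, minus strand) went the other way, at 0.131, 0.191 and 0.245 UMIs per 10000 in isotype and 0.0579, 0.0755 and 0.148 in B20-4.1.1 tumors. The log2 fold change was -0.98 ± 0.18 (1.98-fold lower, adjusted p = 0.00245 by edgeR), and the lowest isotype tumor lay below the highest treated tumor. Its 3 tumors of isotype pool 1 (0.228 to 0.245) stood above the 3 of isotype pool 2 (0.131 to 0.155), and without isotype pool 1 it did not pass. Over 16 alternative settings Nr4a2 passed in 14, with log2 fold changes of -1.27 to -0.71. The other setting in which it did not pass was sums per pool. With a random effect of pool it was the only member that passed. Nr4a1, the paralogous receptor whose promoter is printed above, was at 0.500, 0.663 and 0.692 in isotype and 0.270, 0.445 and 0.580 in B20-4.1.1 tumors (-0.47 ± 0.14, adjusted p = 0.0276). Only the lowest isotype tumor, tumor 6, overlapped the treated range, and Nr4a1 did not pass without isotype pool 1, without isotype pool 2 or without B20-4.1.1 pool 3.

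Fosb and Nfkbiz fell along with them but followed isotype pool 1. Fosb (chromosome 7, 19302696 to 19310051, minus strand) was at 2.38, 4.46 and 5.95 UMIs per 10000 in isotype and 1.26, 2.41 and 3.07 in B20-4.1.1 tumors (-0.70 ± 0.19, adjusted p = 0.0202 by edgeR). Its isotype tumors split by pool, at 5.47 to 5.95 in pool 1 and 2.38 to 3.45 in pool 2, and the pool 2 values lay within or just above the treated range. Nfkbiz was at 0.329, 0.546 and 0.701 in isotype and 0.139, 0.291 and 0.455 in treated tumors (-0.69 ± 0.16, adjusted p = 0.0114), again with pool 1 (0.671 to 0.701) above pool 2 (0.329 to 0.422). Neither passed without isotype pool 1 or without B20-4.1.1 pool 3, and Fosb did not pass without the T-rich tumors.

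Among the members that rose, Cebpd (2.03, 2.18 and 2.44 in isotype; 2.33, 2.68 and 4.36 UMIs per 10000 in B20-4.1.1 tumors) had a log2 fold change of 0.52 ± 0.14 (adjusted p = 0.0246 by edgeR). Jund was at 6.72, 6.98 and 8.31 against 7.47, 8.44 and 12.3 (0.45 ± 0.13), and its 3 highest values (11.9 to 12.3) were the 3 tumors of B20-4.1.1 pool 2. Rhob, which controls actin and endosomal traffic, was at 1.20, 1.24 and 1.63 against 1.43, 1.55 and 2.30 (0.43 ± 0.13), and Gadd45b, a growth arrest and stress-kinase gene, at 0.377, 0.444 and 0.598 against 0.374, 0.602 and 1.01 (0.53 ± 0.17). The treatments overlapped for each of these genes, and the treated tumors above the isotype mean numbered 9 of 9 for Cebpd, Jund and Rhob and 8 of 9 for Gadd45b. Fosl1, the FOS-family gene for FRA-1, was sparse: 0.00541, 0.0102 and 0.0122 against 0.00647, 0.0192 and 0.0695 UMIs per 10000 (1.53 ± 0.43, adjusted p = 0.0259), and the tumors of B20-4.1.1 pool 3 (0.00647 to 0.0124) lay near the isotype range. None of these 5 genes passed without isotype pool 1, and of the 5 only Cebpd passed without B20-4.1.1 pool 2 or without the T-rich tumors. Fosl1 and Gadd45b also did not pass without B20-4.1.1 pool 1, nor Rhob without B20-4.1.1 pool 3.

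**Figure D3:**
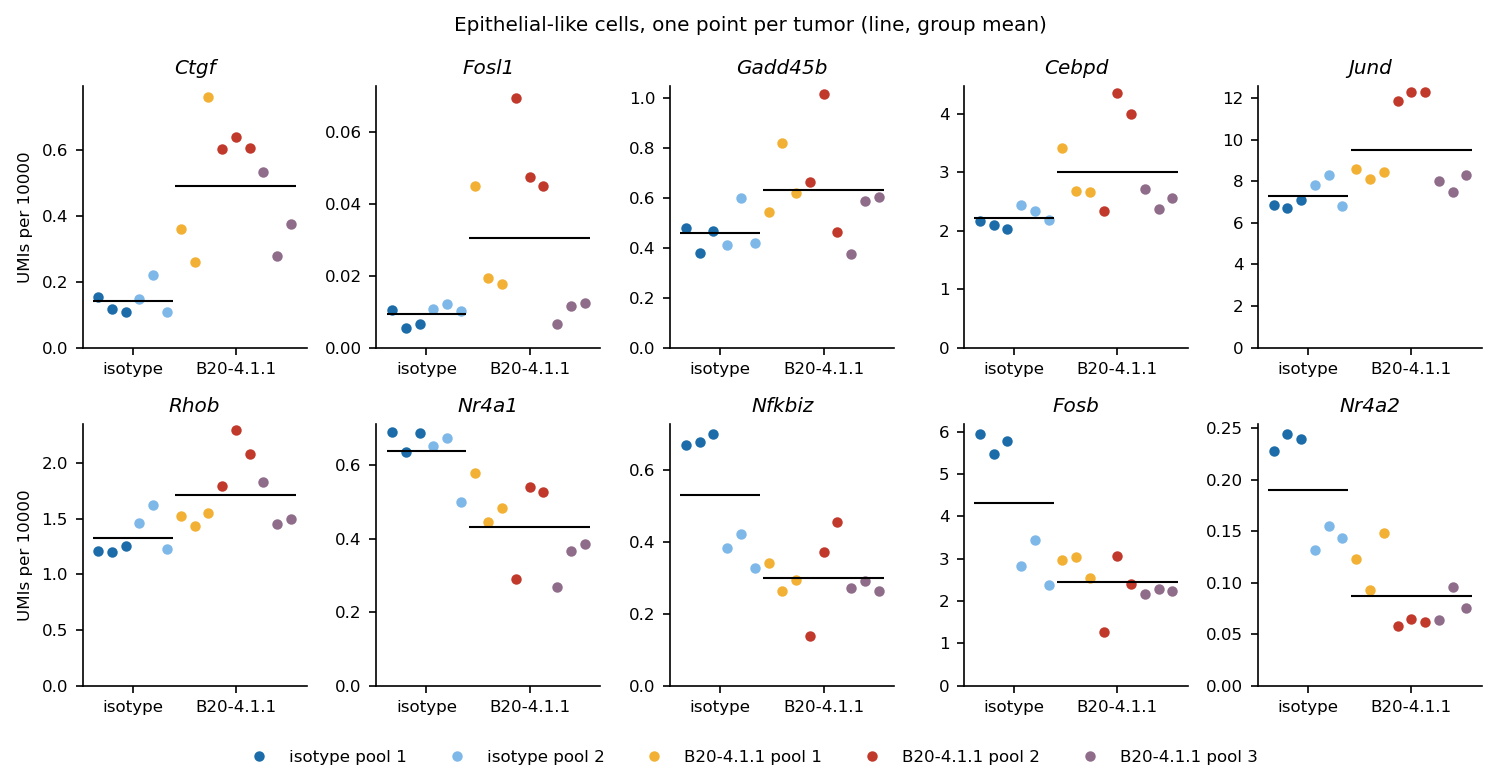
UMIs per 10000 (y, from 0, with a scale for each gene) in epithelial-like cells for the 10 members that passed the test, with 1 point per tumor colored by pool and a line at the treatment mean. The treatments separate for Ctgf (isotype highest 0.219, B20-4.1.1 lowest 0.260), whereas for Fosb, Nfkbiz and Nr4a2 the points of isotype pool 1 lie above those of isotype pool 2.

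Of the 6 most abundant members of epithelial-like cells, Jund passed and the other 5 did not. Fos, the archetypal immediate-early gene, was at 13.2, 14.7 and 21.0 UMIs per 10000 in isotype and 15.5, 19.4 and 26.3 in B20-4.1.1 tumors (0.38 ± 0.15, adjusted p = 0.104 by edgeR). Jun was at 8.34, 9.80 and 10.7 against 8.31, 10.1 and 12.4 (0.09 ± 0.10), Junb at 5.6, 5.90 and 6.44 against 5.46, 6.57 and 10.7 (0.35 ± 0.14), Cebpb at 7.02, 7.74 and 8.89 against 8.15, 8.94 and 12.4 (0.36 ± 0.12, adjusted p = 0.0579) and Ier3 at 4.08, 5.82 and 8.44 against 4.78, 7.09 and 12.1 (0.38 ± 0.22). Their ranges overlapped, and for each of the 5 the highest tumor belonged to B20-4.1.1 pool 2. Of the role groups, none of the 4 Krüppel-like factors (0.22 to 0.63), the 3 IER genes (0.38 to 0.57), the 3 dual-specificity phosphatases (-0.07 to 0.51) and the 3 mRNA decay and antiproliferative genes (-0.09 to 0.31) had a call. The remaining uncalled members of the other groups ran from -0.67 (Egr3) to 0.44 (Cyr61).

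Some measures of the same epithelial-like sums differed between treatments and others overlapped. Median mitochondrial shares were 3.14% to 6.08% in isotype and 2.5% to 3.11% in B20-4.1.1 tumors, with no overlap. Isotype pool 2 (3.14% to 3.70%) lay just above the treated tumors and isotype pool 1 (5.94% to 6.08%) far above. The summed epithelial list (9 of 9 markers detected) was 61.8 to 81.1 against 81.4 to 119.7 UMIs per 10000. The T list (8 of 8) was 0.0721 to 0.138 against 0.121 to 0.376. The macrophage list (10 of 10) was 1.65 to 2.94 against 1.17 to 2.55 (medians 2.16 and 2.26). The neutrophil list (6 of 6) was 0.673 to 1.66 against 0.811 to 3.74 (medians 1.21 and 1.32). The part of these measures in the differences was not tested. The count of 10 depended on the libraries, as did the share of all genes called. Without isotype pool 1, 2 of 40 members passed (Ctgf, and Fosl2, which is not among the 10) beside 3.21% of genes. Without isotype pool 2, 26 of 40 passed beside 43.3% of genes, and without B20-4.1.1 tumors 3, 4 and 6, 5 of 39 beside 10.6%. With the pool as a random block 1 of 40 passed (Nr4a2) beside 0.333% of genes, and in sums per pool 0 beside 0.0%.

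In macrophage-like cells (6 isotype and 8 B20-4.1.1 tumors with at least 20 such cells), no member of 37 tested passed, where 0.0143% of 7008 genes did (edgeR); 4 members (10.8%) had an unadjusted p under 0.05, beside 9.28% of genes, and DESeq2 called 1 of the 30 to which it gave an adjusted p, beside 1.42% of genes. Cebpb, a factor of macrophage differentiation and polarization, came nearest by edgeR. Its level was 3.42, 3.99 and 4.92 UMIs per 10000 in isotype and 4.38, 6.38 and 9.18 in B20-4.1.1 tumors. The log2 fold change was 0.71 ± 0.15 (unadjusted p = 0.000168, adjusted p = 0.111 by edgeR). All 8 treated tumors lay above the isotype mean of 4.08. Cebpb was the DESeq2 call, and it also passed with cells thinned to 2500 UMIs, without isotype pool 2 and without B20-4.1.1 pool 1. It did not pass in the other alternative settings. Fos was at 21.4, 24.8 and 32.7 against 16.8, 26.0 and 53.6 (0.28 ± 0.23), Egr1 at 4.96, 12.8 and 18.9 against 4.56, 8.55 and 18.2 (-0.25 ± 0.31), and Jun at 7.49, 14.9 and 19.8 against 7.68, 11.4 and 20.9 (-0.15 ± 0.24). Junb was at 8.48, 11.2 and 13.4 against 6.36, 11.7 and 23.0 (0.29 ± 0.23), Btg2 at 4.39, 9.58 and 13.5 against 4.48, 8.16 and 17.4 (-0.00232 ± 0.28) and Atf3 at 7.81, 10.9 and 12.3 against 4.54, 9.49 and 23.3 (0.05 ± 0.25). The treated tumors reached both lower and higher than the isotype tumors for Fos, Junb and Atf3. Ctgf, Cyr61 and Fosl1 were too low to be tested.

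In T-like cells (6 and 9 tumors) no member of 31 tested passed, and none of 5965 genes did (0.0% by edgeR); 7 members (22.6%) had an unadjusted p under 0.05, beside 16.5% of genes, and DESeq2 called 2 of the 27 to which it gave an adjusted p, both lower, beside 0.925% of genes. The largest negative values were those of Nr4a2, a receptor-signalling target, at 1.44, 2.06 and 2.36 UMIs per 10000 in isotype and 0.147, 0.621 and 1.72 in B20-4.1.1 tumors (log2 fold change -1.65 ± 0.43, adjusted p = 0.143), of Fosl2 (0.901, 1.17 and 1.57 against 0.140, 0.279 and 1.09, -1.34 ± 0.36) and of Fosb (0.869, 1.74 and 2.64 against 0.186, 0.518 and 1.30, -1.34 ± 0.33). For these 3 genes no treated tumor reached the isotype mean. The 2 DESeq2 calls were Fosb and Nr4a2. Klf4 was the only member without overlap, at 0.524, 0.558 and 0.975 against 0, 0.316 and 0.517 (-1.29 ± 0.37, adjusted p = 0.149), which held for 0.201% of all genes with B20-4.1.1 lower (0.352% in either direction). Klf2 was at 0.524, 1.42 and 2.31 against 0.0621, 2.39 and 12.3 (1.88 ± 0.70, adjusted p = 0.204), and its high values belonged to tumors 3, 4 and 6, at 5.41, 8.94 and 12.3, and to tumor 5, at 4.52. In tumors 3, 4 and 6 the NK list summed to 3.25 to 3.95 UMIs per 10000 in T-like cells, against 11.2 to 20.1 in all others, and the part of T-cell make-up in these values was not tested.

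The most abundant members of T-like cells did not pass either. Btg1 was at 7.74, 9.07 and 11.7 UMIs per 10000 in isotype and 6.53, 12.7 and 18.0 in B20-4.1.1 tumors (0.52 ± 0.21, adjusted p = 0.242 by edgeR), Junb at 9.72, 10.8 and 13.7 against 3.91, 9.04 and 18.5 (0.02 ± 0.25) and Jund at 7.17, 9.04 and 10.8 against 4.65, 8.09 and 10.2 (-0.10 ± 0.16). Btg2 was at 4.36, 4.56 and 6.34 against 1.86, 4.28 and 6.68 (0.01 ± 0.20) and Fos at 2.39, 3.42 and 5.74 against 0.869, 3.10 and 4.26 (-0.11 ± 0.26). Whether the treatment difference itself differed between classes was tested as an interaction, with tumor as a block: no member passed for macrophage-like against epithelial-like cells (0.044% of 11359 genes by edgeR; 10 members, 25.6%, had an unadjusted p under 0.05, beside 8.83% of genes) or for T-like against epithelial-like cells (0.0328% of 12193; 7 members, 17.5%, beside 11.8%). A call in epithelial-like cells alone is therefore not a shown difference between classes.

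Summed over the 40 members, the program differed among pools of the same treatment as well as between treatments. In epithelial-like cells the sum was 91.5, 99.5 and 114 UMIs per 10000 (lowest, median and highest) in isotype and 95.1, 108.1 and 150.8 in B20-4.1.1 tumors, and tumors 4, 5 and 6 of B20-4.1.1 pool 2 (120.5, 150.8 and 149.5) lay above every other tumor. In macrophage-like cells the 3 tumors of isotype pool 1 (201.4, 208.7 and 220.8) exceeded the 3 of isotype pool 2 (144.9, 136.3 and 150.8), tumors 4, 5 and 6 of B20-4.1.1 pool 2 were at 294.8, 297.8 and 178.5, and tumors 7, 8 and 9 of B20-4.1.1 pool 3 were at 104.2, 140.4 and 116.8. In T-like cells tumors 4, 5 and 6 were at 65.4, 99.4 and 93.8, isotype tumor 1 at 90.9 and tumors 7, 8 and 9 at 39.0, 55.1 and 51.5. B20-4.1.1 pool 2 thus had the highest and pool 3 the lowest mean of the 3 treated pools in each class, and no test was made on the sum.

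**Figure D4:**
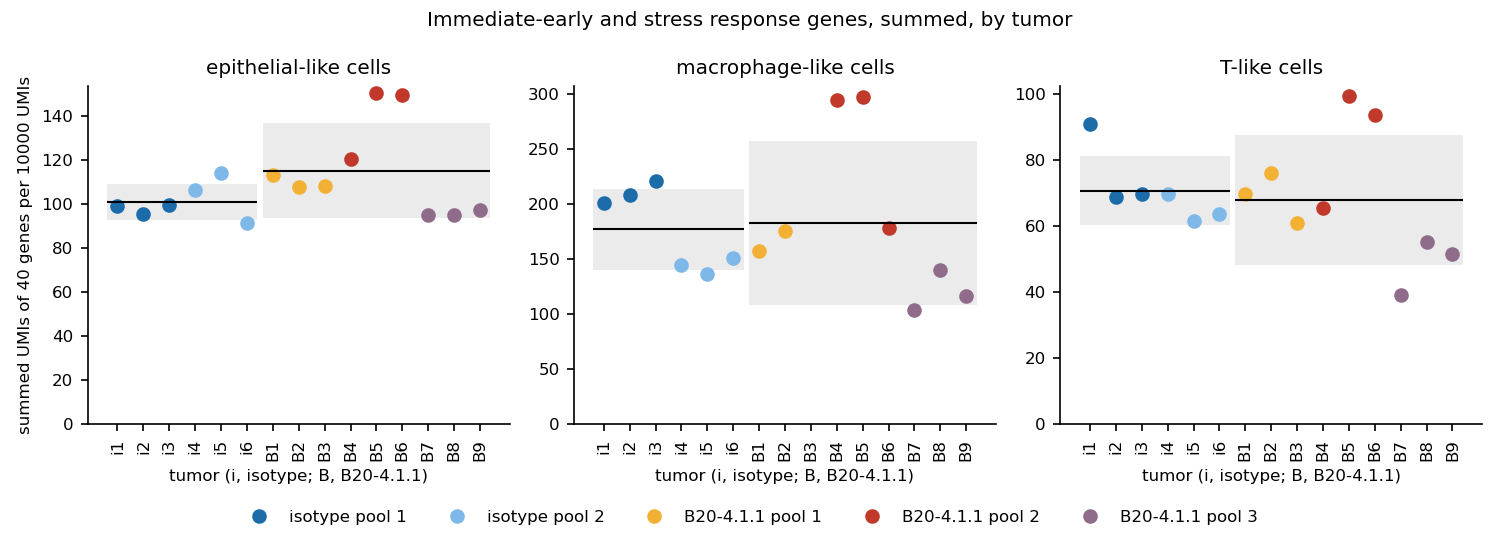
Summed UMIs of the 40 members per 10000 UMIs (y, from 0) for each tumor (x, points colored by pool) in the 3 classes, with a line at the treatment mean and a grey band of 1 SD on either side; B20-4.1.1 tumor 3 had too few macrophage-like cells. Macrophage-like cells range from 104.2 in B20-4.1.1 tumor 7 to 297.8 in tumor 5, with isotype pool 1 above isotype pool 2.

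The isotype pools, which share a treatment, were compared with each other to show how far pools of the same treatment can differ. They hold tumors of different mice, so effects of pool and of tumor cannot be told apart. In epithelial-like cells 25 of 39 members differed, 7 higher and 18 lower in isotype pool 1 (edgeR, 3 tumors against 3), beside 56.3% of 12573 genes (27.0% higher, 29.3% lower). Lower in pool 1 were Ier3 (4.08 to 4.71 against 6.92 to 8.44 UMIs per 10000, log2 difference -1.07 ± 0.08), Atf3 (1.504 to 1.72 against 1.93 to 3.31, -1.05 ± 0.16), Ier2 (3.62 to 3.86 against 5.73 to 6.29, -0.95 ± 0.05) and Fos (13.2 to 14.3 against 15.1 to 21.0, -0.67 ± 0.10). Higher in pool 1 were Fosl2 (0.657 to 0.742 against 0.289 to 0.303, 0.98 ± 0.06), Fosb (0.72 ± 0.11), Hspa1b (1.65 to 1.76 against 0.782 to 0.964, 0.66 ± 0.07), Nfkbiz (0.60 ± 0.08), Nr4a2 (0.47 ± 0.08), Egr1 (5.07 to 5.29 against 3.27 to 3.48, 0.35 ± 0.04) and Btg1 (0.18 ± 0.05). Members of the same family thus differed in both directions, with Fosb and Fosl2 higher and Fos, Junb and Jund lower in pool 1.

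In macrophage-like cells the same pool was higher for 14 of 38 members and lower for none, beside 15.9% of 8209 genes (6.13% higher, 9.78% lower; edgeR). The calls included Egr3 (log2 difference 2.48 ± 0.30), Fosb (8.98 to 9.87 against 2.76 to 4.23 UMIs per 10000, 1.25 ± 0.14), Egr1 (16.7 to 18.9 against 4.96 to 8.87, 1.17 ± 0.17), Nfkbiz (5.12 to 5.72 against 1.74 to 2.89, 1.06 ± 0.16) and Btg2 (1.02 ± 0.14), together with Hspa1a (0.78 ± 0.16) and Hspa1b (0.71 ± 0.19). In T-like cells 8 members were higher and 1, Jund, lower of 33 tested, beside 10.9% of 6391 genes (4.83% higher, 6.07% lower). Nfkbiz (0.665 to 1.07 against 0.101 to 0.235 UMIs per 10000, 2.37 ± 0.30), the cytokine-signalling inhibitor Socs3 (0.377 to 0.880 against 0.114 to 0.229, 1.72 ± 0.35), Zfp36 (0.998 to 1.44 against 0.336 to 0.345, 1.74 ± 0.22) and Klf2 (1.80 to 2.31 against 0.524 to 1.04, 1.18 ± 0.20) were among the higher. Fosb, Nfkbiz, Btg1 and Hspa1b passed in all 3 classes, which were cells of the same tumors in the same libraries.

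A test of the difference between classes, added after these values had been seen, gave 17 of 39 members whose pool difference was not the same in macrophage-like as in epithelial-like cells (15 more positive, 2 more negative), where 2.22% of 12956 genes passed (edgeR). For T-like against epithelial-like cells, 14 of 39 members passed (10 more positive, 4 more negative), where 1.81% of 12883 genes did. Fos (0.81 ± 0.13 and 0.93 ± 0.13 on the log2 scale), Ier2 (1.04 ± 0.12 and 0.57 ± 0.15), Dusp1, the phosphatase that switches off p38 and JNK (1.05 ± 0.12 and 0.70 ± 0.16), and Ier3 (0.69 ± 0.13 and 1.19 ± 0.33) were more positive in both. Fosl2 was more negative in both (-0.81 ± 0.18 and -0.89 ± 0.20). These tests share the epithelial-like sums. In the T-like test the p-values rested on a spread shared across genes, not on each gene's own spread between tumors. In isotype pool 1 the median mitochondrial share was 3.82% to 4.30% in macrophage-like and 3.26% to 3.59% in T-like cells, against 1.73% to 2.12% and 1.84% to 1.89% in isotype pool 2, and the part of cell quality in the pool differences was not tested.

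**Figure D5:**
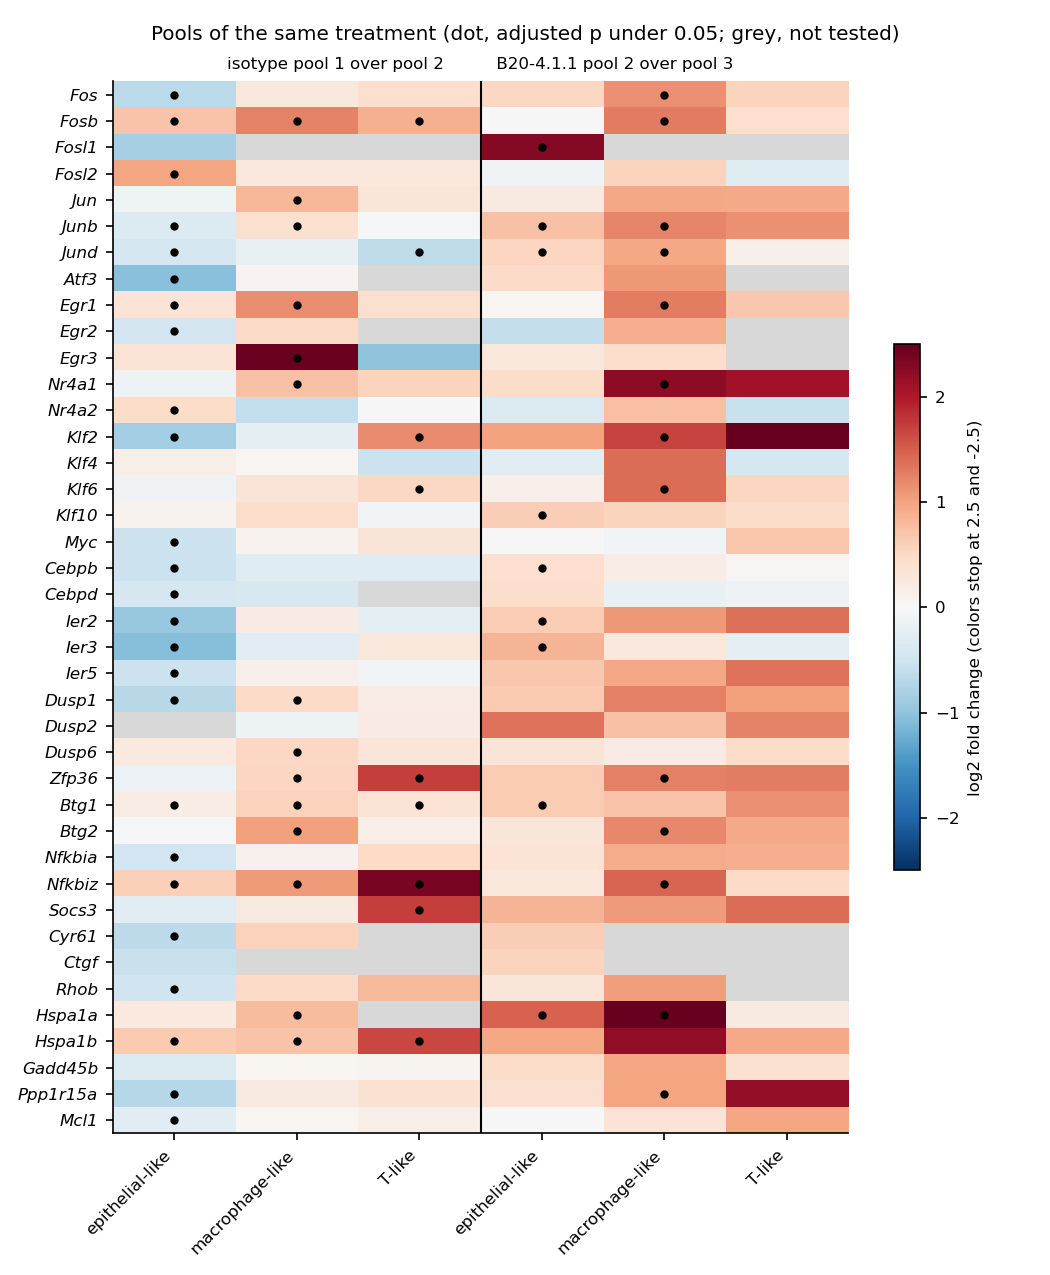
Heatmap of the log2 difference of each member (rows) between isotype pool 1 and pool 2 (left columns) and between B20-4.1.1 pool 2 and pool 3 (right columns) in the 3 classes, with red for higher in the first-named pool, a dot for an adjusted p under 0.05 and grey for not tested. In isotype tumors and with TMM scaling, epithelial-like cells have 18 members lower in pool 1, whereas macrophage-like cells have 14 higher and none lower.

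B20-4.1.1 pools 2 and 3 were compared for the same reason, again after the sums had been seen. In epithelial-like cells 9 of 40 members were higher in pool 2 and none lower, where 1.19% of 11770 genes passed (0.731% higher, 0.459% lower; edgeR): Fosl1, Hspa1a (0.860 to 1.78 against 0.297 to 0.587 UMIs per 10000, log2 difference 1.47 ± 0.24), Ier3 (8.70 to 12.1 against 4.78 to 6.07, 0.85 ± 0.13), Junb (8.34 to 10.7 against 5.46 to 5.48, 0.73 ± 0.11), Btg1, Ier2, Klf10, Jund and Cebpb. Without the T-rich tumors 4 and 6, which leaves tumor 5 as the sole tumor of pool 2, assumed to vary like the others, 0 passed, beside 0.047% of genes. In macrophage-like cells 13 of 37 were higher, where 0.673% of 6832 genes passed (0.512% higher, 0.161% lower), among them Hspa1a (2.69 to 5.62 against 0.0982 to 1.17, 2.80 ± 0.50), Nr4a1 (1.52 to 4.66 against 0.334 to 0.959, 2.23 ± 0.38), Klf2 (1.69 ± 0.34), Zfp36 (8.05 to 14.5 against 4.13 to 5.33, 1.26 ± 0.22) and Fos (26.2 to 53.6 against 16.8 to 22.6, 1.15 ± 0.24); 14 of 37 passed without the T-rich tumors, beside 0.543% of genes. In T-like cells none of 33 passed (0.0% of 6198 genes by edgeR; 15 members, 45.5%, had an unadjusted p under 0.05, beside 20.4% of genes), and 8 of 31 did without the T-rich tumors, beside 0.815% of genes. Pool 2 against pool 1 gave 4 members, all higher (Cebpb, Ier2, Jund and Klf10), in epithelial-like cells, where 1.2% of genes passed (0.773% higher, 0.425% lower), and 0 in macrophage-like and T-like cells (0.0% of genes in each; 19 and 6 members, 51.4% and 18.2%, had an unadjusted p under 0.05, beside 7.29% and 3.53% of genes). Pool 1 against pool 3 gave 0 members in each class, where 0.255% (0.153% higher, 0.102% lower), 0.0146% and 0.0323% of genes passed in epithelial-like, macrophage-like and T-like cells, and 9, 10 and 9 members (22.5%, 27.0% and 27.3%) had an unadjusted p under 0.05 by edgeR, beside 11.2%, 8.53% and 12.1% of genes. These contrasts share tumors.

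Of 58 further early-response and stress genes listed beside the members, 57 were tested in epithelial-like cells, and 9 were higher and 4 lower in B20-4.1.1 tumors (22.8% of the list; edgeR). The 4 with the smallest p were the HSP110 gene Hsph1 (log2 fold change -0.57 ± 0.10, adjusted p = 0.002), the integrated stress response factor gene Ddit3 (0.52 ± 0.10), the bZIP repressor gene Nfil3 (0.93 ± 0.18) and the small heat shock protein gene Hspb1 (0.78 ± 0.17). In macrophage-like cells none of 49 passed and in T-like cells none of 46. Hspa1a (-0.17 ± 0.26) and Hspa1b (-0.37 ± 0.22), the inducible HSP70 genes whose promoters are printed above, did not pass in epithelial-like cells, at 0.561, 0.934 and 1.04 against 0.297, 0.610 and 1.78 UMIs per 10000 for Hspa1a and 0.782, 1.31 and 1.76 against 0.405, 1.02 and 1.54 for Hspa1b.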

How the data were processed

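Gene counts (UMIs) per cell were deposited by the authors as 1 filtered matrix per tumor, made with Cell Ranger (6.1.2 per the file headers, mm10) after bcl2fastq; Seurat 4.3.0 is in the submitters' processing notes. Counts were not normalized. UMIs are counted at the 3′ end and were not scaled by gene length, so levels are compared within a gene only. Pools were identified from the labels, and each tumor from its own matrix. Cells with at least 2500 UMIs, below the study's upper limit, and at most 20% mitochondrial UMIs were kept (scipy 1.17.1, pandas 2.3.3 and numpy 2.4.6 in Python 3.11.15); no doublet caller was run, and cells with markers of several classes were set aside. A cell joined a class if it had at least 3 of its markers and the next class had at most 60% of the best score; clusters (scanpy 1.11.5, leidenalg 0.10.2) were an alternative.

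Counts were summed per tumor and class (at least 20 cells) and tested across all genes with edgeR 4.0.16 (quasi-likelihood, TMM, filterByExpr, two-sided, Benjamini-Hochberg 0.05; R 4.3.3), first tested on simulated data. The simulated counts varied independently between tumors with no effect of pool, so they cannot show the error rate where pools are nested in treatment. P-values measure the spread between tumors, which the fit shares in part or in full across genes, and tumors of 1 pool share a library. Gene UMIs summed to between 4014509 and 23726246 per tumor, and intervals on class levels (exact Poisson, 95%) cover counting error only. DESeq2 1.42.0 and limma 3.58.1 were alternatives. In each class, members with an adjusted p under 0.05 (up to 10) and the 6 with the highest mean are given in full. Members chosen after their values were seen are Cebpb, Fosb, Nfkbiz and Atf3 in the pool and macrophage-like comparisons, Nr4a2, Fosl2, Fosb and Klf4 in T-like cells, and the examples between classes and pools. The members, gene lists, gate and tests were chosen with earlier results of these data known. The B20-4.1.1 pool comparisons, the pool by class tests and the class comparisons and sums with pools left out were added after seeing the data. Gene positions are from GENCODE for GRCm38.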

Additional observations from a re-analysis of the deposited data

Results flagged for a closer look

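Samples far from the rest of their group (Dixon's test at 95%) were looked for in 60 groups of values, of which chance alone marks about 1 in 20. Fosb in epithelial-like cells of B20-4.1.1 tumor 4 was 1.263 UMIs per 10000, below the other 8 treated tumors (2.17 to 3.07); this tumor had 77 epithelial-like cells. Nr4a1 in epithelial-like cells of isotype tumor 6 was 0.4995, below the other 5 (0.636 to 0.692). Atf3 in macrophage-like cells of B20-4.1.1 tumor 5 was 23.29, above the other 7 (4.54 to 12.2). The summed members in T-like cells of isotype tumor 1 were 90.91, above the other 5 (61.7 to 69.8); this tumor had 42 T-like cells. Differences between groups were marked for the isotype pool contrast, where 17 members differed between macrophage-like and epithelial-like cells and 14 between T-like and epithelial-like cells by the test of the difference itself.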

How the results depend on the processing

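Treatment and pool cannot be told apart, and the unit of variation decides the counts. In the limma-voom fit, the correlation left between tumors of a pool after the treatment term was a consensus over genes. It was 0.536 in epithelial-like cells, 0.262 in macrophage-like cells and 0.18 in T-like cells. No paired analysis was possible because the labels give no replicate numbers, pools and tumors were numbered in order within each treatment, and nothing links a pool of one treatment to a pool of the other; the pool entered as a random block. Against 10 calls in epithelial-like cells, the pool as a random block left 1 (Nr4a2, adjusted p = 0.0457), sums per pool 0 and tumors without T-rich ones 5; leaving out a pool gave 2 (isotype pool 1) to 26 (isotype pool 2), and the remaining settings 7 to 13. The share of all genes called moved too, at 14.4% against 0.333% with the random block, 0.0% in sums per pool, 10.6% without T-rich tumors, and 3.21% and 43.3% without isotype pools 1 and 2. Over the remaining settings it was 6.65% to 17.4%. Against 0 calls in macrophage-like cells, DESeq2 gave 1 (beside 1.42% of genes), thinned cells 1 (0.208%) and leaving out a pool 0 to 3 (isotype pool 2 left out gave 3, beside 6.14%). Against 0 in T-like cells, DESeq2 gave 2 (0.925%) and leaving out a pool 0 to 5 (B20-4.1.1 pool 3 left out gave 5, beside 5.55%). For B20-4.1.1 pool 2 against 3 without T-rich tumors (alternatives added after seeing the data), 9 calls became 0 in epithelial-like and 0 became 8 in T-like cells.

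Single genes whose log2 fold change turned were all uncalled. With thinned cells, Jun in epithelial-like cells was -0.0107 and Btg2 in T-like cells -0.0834. With total UMIs, Atf3 in macrophage-like cells was -0.0154, and Junb and Btg2 in T-like cells -0.11 and -0.14. With the random pool block these 3 were -0.0757, -0.11 and -0.0513. In sums per pool, Btg2 in macrophage-like cells was 0.0846 and Junb in T-like cells -0.0108. Btg2 in macrophage-like cells was also 0.0112 with RLE factors, 0.0124 with DESeq2, 0.0012 at a minimum of 1000 UMIs, 0.017 at 10% mitochondrial UMIs and 0.0057 by cluster. Without T-rich tumors, Btg2 in T-like cells was -0.0802. Ranges on leaving out a pool are -0.0462 to 0.97 for Ier3 in epithelial-like cells; in macrophage-like cells -0.13 to 0.56 for Fos, -0.51 to 0.36 for Jun, -0.14 to 0.58 for Junb, -0.72 to 0.48 for Egr1, -0.28 to 0.33 for Atf3 and -0.42 to 0.62 for Btg2; and in T-like cells -0.24 to 0.27 for Junb, -0.36 to 0.25 for Jund, -0.23 to 0.21 for Btg2 and -0.34 to 0.15 for Fos. The causes were not tested. The summed difference between treatments (14.25, 6.04 and -2.86 UMIs per 10000 for the epithelial-like, macrophage-like and T-like classes) kept its sign with thinned cells and at a minimum of 1000 UMIs. When a pool was left out, an alternative added after seeing the data, it kept its sign in epithelial-like cells only. Leaving out a pool gave 1.77 (without B20-4.1.1 pool 2) to 23.97 (without B20-4.1.1 pool 3) in epithelial-like cells. In macrophage-like cells it gave -38.3 (without B20-4.1.1 pool 2) to 43.7 (without B20-4.1.1 pool 3), and -27.1 without isotype pool 2 and 39.2 without isotype pool 1. In T-like cells it gave -12.01 (without B20-4.1.1 pool 2) to 6.82 (without B20-4.1.1 pool 3), with -8.58 without isotype pool 2 and 2.87 without isotype pool 1. Depth limits Fosl1, which rested on 6 to 44 UMIs per B20-4.1.1 tumor in epithelial-like cells.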
